A study of Mus musculus with 4 samples.

Results

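The immunity-related GTPases (IRG proteins) were followed through 7 genes, Igtp, Irgm1, Irgm2, Iigp1, Tgtp1, Tgtp2 and Ifi47, taken by gene name from an expression table of 24497 mouse genes; all 7 were in it. The table comes from RNA-seq of mouse leukaemic cells in 4 libraries, 2 labelled WT and 2 labelled Tet2 KO. Haematopoietic stem cells from the bone marrow of wild-type or Tet2-/- mice had been turned leukaemic with NRAS and AE9a, a truncated form of the AML1-ETO fusion, so both groups carry both oncogenes. Cultures held SCF at 50 ng/ml, IL-3 and IL-6 at 10 ng/ml, G418 and puromycin. The cells were grown in C57 B6.SJL (CD45.1+) recipients aged 6 to 8 weeks that had received 900 cGy, and CD45.2 cells were enriched from the spleen. The host keeps its own radioresistant cells, and the labels give neither the Tet2 allele nor the number of mice or donors behind a library.

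IRG proteins are interferon-induced GTPases that defend the cell's own compartment. Effectors of the GKS type, named after the usual lysine of the nucleotide-binding loop (Iigp1, Tgtp1, Tgtp2 and Ifi47), gather on the vacuoles of intracellular parasites and bacteria and break them open. Regulators of the GMS type (Irgm1, Irgm2 and Igtp), in which methionine stands in place of that lysine, sit on the cell's own membranes and keep the effectors inactive there. Transcription of the family is induced by interferon gamma, classically through the promoter element named GAS, and by type I interferon through the element named ISRE.

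The promoters of 4 members shared a compact pair of these elements, shown here because the members moved together in the expression data. RefSeq windows of GRCm38.p6, from 250 bases before to 50 bases after the annotated start, matched 6 of the 7 members; Iigp1 had no entry. Both strands were searched for GAS, written TTCNNNGAA, and for the core of the ISRE, written GAAANNGAAA. The stretches below read 5′ to 3′ on the gene's strand, with matches in capitals.
Igtp: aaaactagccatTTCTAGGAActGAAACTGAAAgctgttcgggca
Irgm2: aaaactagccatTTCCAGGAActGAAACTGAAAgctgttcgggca
Tgtp1: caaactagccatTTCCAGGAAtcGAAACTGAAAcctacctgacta
Tgtp2: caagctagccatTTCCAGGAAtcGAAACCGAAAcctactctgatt
Gm12185: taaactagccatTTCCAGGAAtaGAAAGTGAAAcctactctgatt
Irgm1: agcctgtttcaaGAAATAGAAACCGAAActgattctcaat
Gm12250: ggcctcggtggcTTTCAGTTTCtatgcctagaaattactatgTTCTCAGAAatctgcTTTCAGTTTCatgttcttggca
Gm12185 and Gm12250 are family genes outside the 7. The stretches lie on chromosome 11, at chr11:58199499-58199543 for Igtp and chr11:58214890-58214934 for Irgm2, both on the plus strand. Those of Tgtp1, Tgtp2, Gm12185 and Irgm1 lie on the minus strand, at chr11:48992302-48992346, chr11:49064261-49064305, chr11:48927236-48927280 and chr11:48871423-48871462. That of Gm12250 lies at chr11:58183740-58183818 on the plus strand.

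In Igtp, Irgm2, Tgtp1, Tgtp2 and Gm12185 a GAS was followed, after 2 bases, by an ISRE core in the same orientation. Counted from the annotated start, the pair began at -45 in Igtp, -75 in Irgm2, -88 in Tgtp1, -81 in Tgtp2 and -86 in Gm12185. Written as TTCNNNGAANNGAAANNGAAA, this arrangement was found in 5 of 32851 windows (0.0152%), and those 5 are these genes. A GAS, with or without an ISRE core, was in 8.3% of windows. An ISRE core, with or without a GAS, was in 3.44%, and both were in 149 windows (0.454%). The flanks are shared too. The 45-base stretches of Igtp and Irgm2 were identical at 44 positions, and those of Tgtp1 and Tgtp2 at 37, so the 5 windows are related copies and not independent finds. The arrangement was written down after these promoters had been read.

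Irgm1 held a different layout, with 2 overlapping ISRE cores, at -30 to -21 and at -24 to -15, and no GAS in the window. Gm12250 held a GAS at -61 to -53 between 2 ISRE cores on the minus strand. The window of Ifi47 held neither set of letters. The windows also differed in CpG content: 11 CpG in Irgm1 and 9 each in Igtp and Irgm2, the GMS genes, against 1 in Tgtp1 and 2 each in Tgtp2 and Ifi47, with a median of 7 over all windows. Methylation was not measured in these libraries, and a match of letters is a description and not a site of binding.

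**Figure D1:**
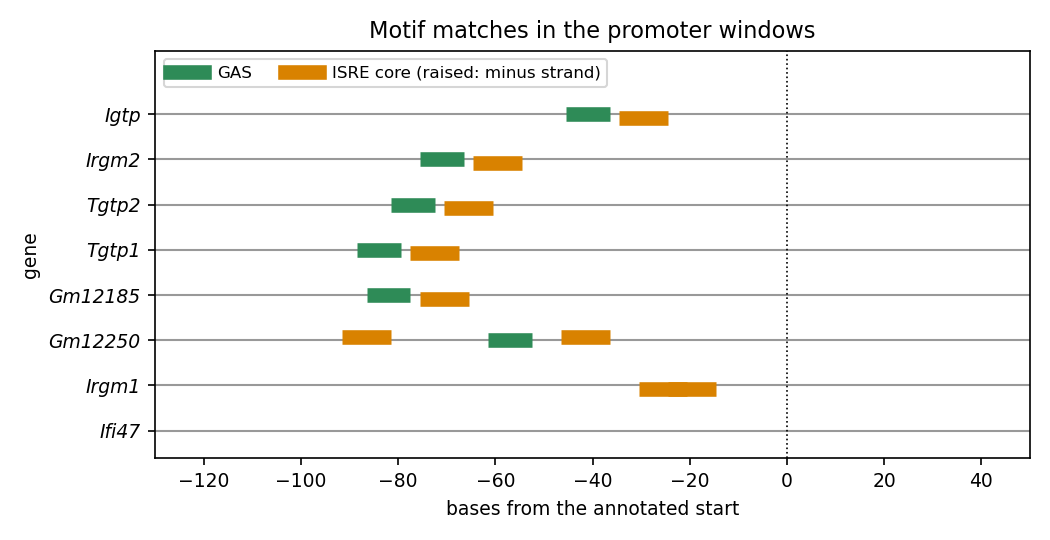
Matches to GAS (green) and to the ISRE core (orange, raised when on the minus strand) in the RefSeq promoter windows of 8 family genes, against the distance in bases from the annotated start. Igtp, Irgm2, Tgtp2, Tgtp1 and Gm12185 show the same adjacent pair at -88 to -25; Irgm1 shows 2 overlapping ISRE cores and Ifi47 none.

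Expression is given as TPM (a share of all transcripts that corrects for transcript length, so that genes can be compared). From 11300 to 11467 genes per library were at 1 TPM or more. Variation between the WT libraries was close to read sampling alone (robust variance ratio 1.10 over 1973 genes, against 5.68 over 2099 genes for the libraries labelled Tet2 KO). The WT pair was averaged and entered as 1 sample. Means are therefore over 1 sample for WT and given ± SD over n = 2 for Tet2 KO. ERCC spike-in RNAs took 4.62% to 4.66% of TPM in WT and 2.95% to 3.19% in the others. Tet2, the targeted gene, measured 43.5 and 43.7 TPM in WT, and 63.7 and 68.1 TPM where the label was Tet2 KO, with a log2 change of 0.58 ± 0.19 (limma adjusted p = 0.0171, called in 12 of 14 tests), so its level gives no check of the deletion, and every direction below rests on the labels.

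All 7 IRG genes fell in the libraries labelled Tet2 KO, from a summed 1923 TPM in WT to 34.0 ± 6.58 TPM, which is 1.77% of the WT sum. The WT libraries gave 1924 and 1922 TPM and those labelled Tet2 KO gave 29.3 and 38.6 TPM. All 7 members passed the threshold as lower, an adjusted p under 0.05 by limma, where 26.7% of the 11919 genes tested were called lower and 22.1% higher. The median log2 change of the members was -5.32, beside -0.12 for all genes tested. Log2 changes are on the log2(TPM + 1) scale, which understates the change of low genes. Of the 7, 5 reached 1 TPM in all 4 libraries; Tgtp2 did so in 3, and Iigp1 passed the filter through the WT libraries alone. With no filter on low values, 3 of the 7 were called, Irgm1, Iigp1 and Tgtp1. In bulk RNA, fewer cells of an IRG-expressing type and less IRG RNA per cell cannot be told apart.

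Cell type markers moved with the labels beside the IRG genes. The counts of markers called below stand beside 22.1% higher and 26.7% lower over all 11919 genes tested. The pan-leukocyte gene Ptprc (CD45) was present in all libraries, at 292 to 296 TPM in WT and 396 to 413 TPM in the others. All 6 myeloid markers were present in all libraries too, with 4 called higher and 1 lower. Csf3r, among the higher, went from 20.2 and 21.9 TPM in WT to 365 and 216 TPM under the Tet2 KO label. Csf1r, the lower one, went from 721 and 730 TPM to 170 and 142 TPM. The 9 neutrophil granule markers summed to 1464 and 1487 TPM in WT and to 84809 and 68745 TPM under the Tet2 KO label, with 8 of 9 called higher. The 6 dendritic markers summed to 424 and 428 TPM against 62.5 and 42.1 TPM, with all 5 tested lower and Clec9a under 1 TPM throughout. The 7 macrophage markers summed to 1125 and 1129 TPM against 400.1 and 381 TPM, with 5 of 6 tested lower, 1 higher and Vcam1 under 1 TPM throughout. Of other cells, the B cell markers summed to 8.30 to 9.22 TPM in WT and 4.05 to 6.21 TPM under the Tet2 KO label, the erythroid ones to 2.26 to 3.43 and 6.81 to 46.6 TPM, and the endothelial ones, with Cdh5 and Kdr under 1 TPM throughout, to 52.1 to 52.4 and 72.3 to 72.6 TPM. The part of these cells in the fall of the IRG genes was not tested. The labels name no mouse for any library, so each p-value reflects how far these particular libraries spread, and that spread may be technical.

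**Figure D2:**
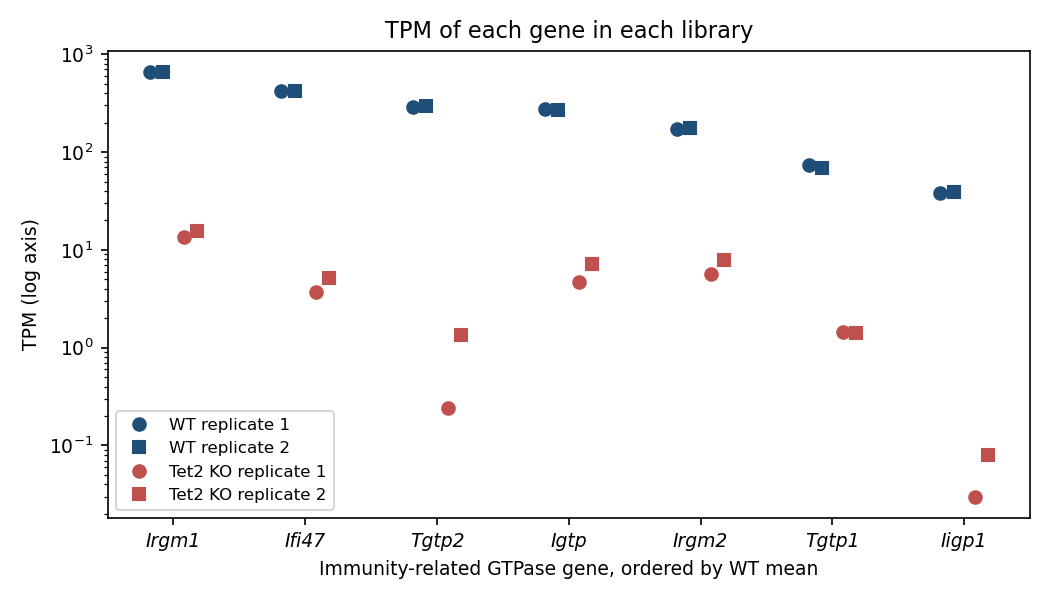
TPM (log axis) of the 7 IRG genes in each of the 4 libraries, ordered by the WT mean; each point is 1 library, blue for WT and red for Tet2 KO. In every gene both WT libraries lie above both Tet2 KO libraries, and WT points nearly coincide while those of Tgtp2 and Iigp1 in Tet2 KO spread most on this axis.

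Among the GMS regulators, Irgm1 (ENSMUSG00000046879.7, chromosome 11, 48861968 to 48871683, minus strand), which acts at Golgi and lysosomal membranes, was the most abundant member in every library. It measured 659 and 656 TPM in WT, and 13.6 and 15.7 TPM where the label was Tet2 KO. The groups lay far apart, and the log2 change was -5.40 ± 0.19 (SE; limma adjusted p = 6.00e-12). Igtp, also known as Irgm3 and found on the endoplasmic reticulum and lipid droplets (ENSMUSG00000078853.8, chromosome 11, 58199556 to 58207591, plus strand), stood at 274 and 267 TPM in WT. It stood at 4.68 and 7.17 TPM under the Tet2 KO label, a log2 change of -5.32 ± 0.26 (adjusted p = 8.63e-10). Irgm2, a Golgi-associated regulator (ENSMUSG00000069874.7, chromosome 11, 58199618 to 58222782, plus strand), showed the smallest fall of the 7. It went from 174 and 177 TPM to 5.68 and 7.81 TPM, a log2 change of -4.52 ± 0.25 (limma adjusted p = 8.99e-10). As a plain ratio of mean TPM the fall was 26.0-fold. An annotated Irgm2 transcript starts inside Igtp, and 11.8% of the 50-base words of Igtp transcripts also occur in Irgm2, so reads there may be split between them.

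Of the GKS effectors, Ifi47, also known as Irgd (ENSMUSG00000078920.3, chromosome 11, 49076587 to 49096974, plus strand), was the second most abundant member in WT, at 417 and 417 TPM. It stood at 3.68 and 5.14 TPM under the Tet2 KO label, a log2 change of -6.28 ± 0.25 (limma adjusted p = 1.77e-11). As a plain ratio of mean TPM the fall was 94.5-fold. Iigp1, also known as Irga6, a myristoylated effector encoded on chromosome 18 (ENSMUSG00000054072.12), was the least abundant, at 38.6 and 38.8 TPM in WT. In the libraries labelled Tet2 KO it was listed at 0.03 and 0.08 TPM. There, 1 read on a transcript of 2000 nt would be worth about 0.0453 and 0.0430 TPM, so these values rest on very few reads and no linear fold is given. The log2 change of Iigp1, -5.23 ± 0.29 (adjusted p = 7.54e-10), is bounded by the pseudocount; at 0.1 it was -7.99.

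Tgtp1 and Tgtp2 encode copies of Irgb6, among the earliest effectors to load onto vacuoles. They lie on chromosome 11, minus strand, at 48985327 to 48994172 (ENSMUSG00000078922.9) and 49057194 to 49064206 (ENSMUSG00000078921.3). Of the 50-base words of their transcripts, 79.4% of those of Tgtp1 occur in Tgtp2 and 85.8% of those of Tgtp2 in Tgtp1, so the split of reads between the copies is uncertain. Tgtp1 measured 74.6 and 69.5 TPM in WT, and 1.46 and 1.41 TPM where the label was Tet2 KO (log2 change -4.91 ± 0.30, adjusted p = 2.43e-09). Tgtp2 measured 286 and 297 TPM in WT, then 0.24 and 1.36 TPM under Tet2 KO, a log2 change of -7.42 ± 0.38 (adjusted p = 7.42e-08). Among the 7 genes, the ratio between the libraries labelled Tet2 KO was largest for Tgtp2, and with a pseudocount of 0.1 this call was lost (adjusted p = 0.0875). Added together, the copies went from 361 and 366 TPM to 1.70 and 2.77 TPM, with a log2 change of the sum of -6.84 ± 0.28 (adjusted p = 3.46e-11).

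**Figure D3:**
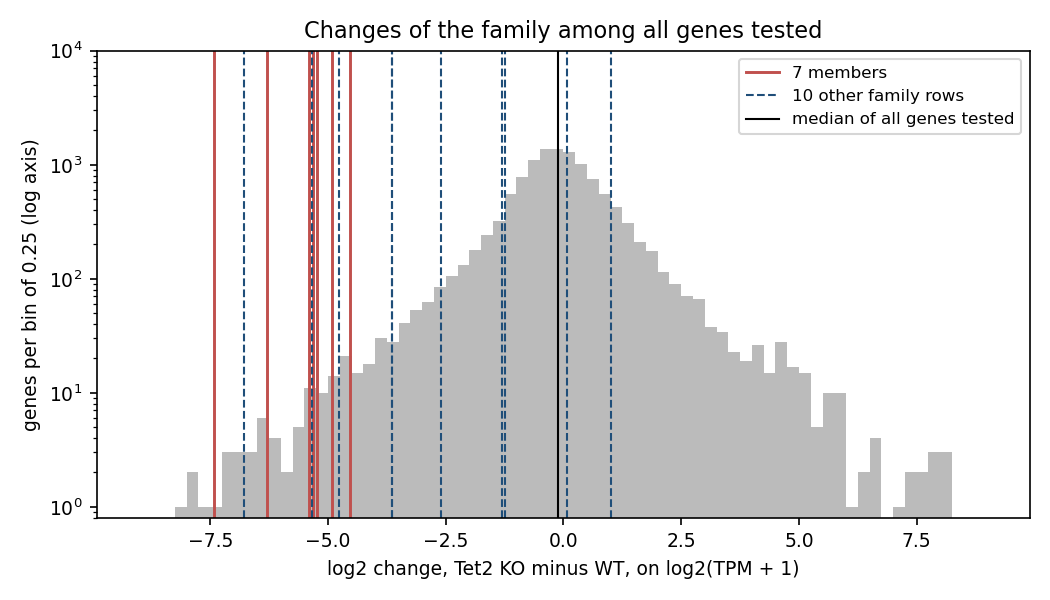
Distribution of log2 changes (Tet2 KO minus WT, on log2(TPM + 1)) over the 11919 genes tested, with the number of genes per bin on a log axis. Solid red lines mark the 7 members, between -7.42 and -4.52, dashed blue lines the 10 other family rows, and the black line the median of all genes at -0.12.

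The order of levels within the family differed between the groups. In WT it ran Irgm1, Ifi47, Tgtp2, Igtp, Irgm2, Tgtp1 and Iigp1, and the 2 libraries of each gene lay apart from those of the next in the order. In the libraries labelled Tet2 KO it ran Irgm1, Irgm2, Igtp, Ifi47, Tgtp1, Tgtp2 and Iigp1. There the values of Irgm2 overlapped those of Igtp, and those of Igtp overlapped those of Ifi47, so these neighbours are not ordered beyond their spread.

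The GMS regulators made up a larger part of what was left. Their share of the summed TPM of the 7 genes was 57.6% and 57.3% in WT and 81.6% and 79.3% in the libraries labelled Tet2 KO. As a percentage of its WT mean, Irgm2 kept 3.24% and 4.45%, Irgm1 2.06% and 2.38%, and Igtp 1.73% and 2.65%. Ifi47 kept 0.883% and 1.23%, and Tgtp1 and Tgtp2 added together kept 0.468% and 0.762%. Taken alone, Tgtp1 kept 2.03% and 1.96%, within the range of the GMS genes. Summed over genes, the GMS type went from 1104 to 27.3 ± 4.76 TPM and the GKS type from 819 to 6.70 ± 1.82 TPM. The difference between the subgroups was not tested, since the members do not replicate each other. Between the libraries labelled Tet2 KO, replicate 2 was higher than replicate 1 in 6 of the 7 genes, all but Tgtp1.

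Most other rows of the family were lower as well. Of 18 further names searched, several of them aliases, 11 were in the table and were tested: 9 were called lower (26.7% of all genes) and 1 higher (22.1%). Of the 11, 6 passed the filter through the WT libraries alone and 1 through the others alone, so that these counts were partly set by the filter. Gm12250, listed as a processed pseudogene in the annotation but known to encode Irgb10, an effector that opens bacterial membranes, measured 174 and 175 TPM in WT, and 0.47 and 0.70 TPM where the label was Tet2 KO (log2 change -6.79 ± 0.30, limma adjusted p = 5.58e-11). Gm5431 stood at 88.2 and 91.3 TPM against 1.41 and 1.09 TPM, and Gm4951 at 26.9 and 28.1 TPM against 0.10 and 0 TPM. The low-level rows Gm4841 and F830016B08Rik fell from means of 1.54 and 1.52 TPM, with log2 changes of -1.30 ± 0.22 and -1.24 ± 0.23.

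Other genes between Irgm1 and Ifi47 were lower too. 9930111J21Rik1 measured 126 and 130 TPM in WT, and 21.3 and 19.1 TPM where the label was Tet2 KO, a log2 change of -2.61 ± 0.20. 9930111J21Rik2 stood at 113 and 116 TPM against 8.16 and 8.20 TPM (-3.65 ± 0.24), and Gm12185 at 15.3 and 15.9 TPM against 0.39 and 0.29 TPM (-3.63 ± 0.28). The value of Gm12185 is held down by the pseudocount: it kept 2.18% of its WT mean, and with a pseudocount of 0.1 its log2 change was -5.17. These 2 9930111J21Rik genes share 50-base words with each other (80.4% of those of 9930111J21Rik1), and Gm5431 shares 27.2% of its own with 9930111J21Rik1, so their split is uncertain. Gm18853, a pseudogene on chromosome 7 whose transcript is almost wholly shared with Gm18852 (98.5% of 50-base words), stood at 11.1 and 12.9 TPM in WT and was listed at 0 in both others. It lies outside the IRG clusters, and without it 8 of 10 rows were lower, with a median log2 change of -3.12.

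Irgq and Irgc1, family members not known as interferon-induced, were not among the falls. Irgq, which lacks a working GTP-binding site, measured 13.8 and 13.2 TPM in WT, and 13.4 and 15.4 TPM where the label was Tet2 KO (log2 change 0.08 ± 0.26, adjusted p = 0.816), and the groups overlapped. Under ERCC scaling it passed as higher (log2 change 0.64, adjusted p = 0.0345). Irgc1, known from the testis, stood at 0.11 and 0.56 TPM against 2.49 and 1.04 TPM, a log2 change of 1.00 ± 0.32 (adjusted p = 0.0255). That call was lost in 6 of 13 tests under the settings tried, among them leaving out WT replicate 1.

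Genes next to the IRG clusters were called lower in part. Within 200 kb of a member lay 28 annotated genes of the table that belong to neither the IRG nor the GBP family, and 20 were tested: 10 were lower (26.7% of all genes), 1 was higher (22.1%) and 9 passed neither way. Of the 20, 4 passed the filter through the WT libraries alone, among them Snord95 and the olfactory receptor genes. Their median log2 change was -0.81. On the log2(TPM + 1) scale the lowest value among them was -2.77, for the small nucleolar RNA gene Snord95 (5.54 and 6.11 TPM in WT, listed at 0 in both others), and the smallest change among the members was -4.52, for Irgm2. With a pseudocount of 0.1 this order turned: Snord95 was at -5.89 and Olfr56 at -4.77, beyond Irgm2 at -4.70. Snord95 lies inside Rack1, another neighbour called lower, so these rows are not separate places. Psme2b, a copy of a proteasome activator gene that touches 9930111J21Rik1, went from 126 and 123 TPM to 20.6 and 20.2 TPM (-2.55 ± 0.20). Olfr56, an olfactory receptor gene whose annotation spans Tgtp1, Tgtp2 and Ifi47 and shares sequence with Ifi47, stood at 4.32 and 4.68 TPM against 0.05 and 0.09 TPM (-2.36 ± 0.24). Olfr1396 stood at 2.14 and 2.16 TPM and was listed at 0 in both libraries labelled Tet2 KO.

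The other called neighbours had smaller changes. The ribosomal scaffold gene Rack1 fell by 1.08 ± 0.29 on the log2 scale, and the log2 change was -1.14 ± 0.20 for Larp1, an RNA-binding protein gene, -1.03 ± 0.30 for Gemin5, an snRNP assembly gene, and -0.84 ± 0.24 for Mrpl22, a mitochondrial ribosomal gene. Smim3, near Iigp1, fell by 1.22 ± 0.20, and Trim7 fell by 0.78 ± 0.25 from a low level. With ERCC scaling Rack1, Gemin5, Mrpl22 and Trim7 did not pass; with quantile normalization Rack1 and Trim7 did not, and with median centring Trim7 did not. Zfp672 rose, from 8.62 and 8.71 TPM to 14.9 and 14.4 TPM (0.70 ± 0.27, adjusted p = 0.0436). Under ERCC scaling 6 neighbours were lower and 3 higher.

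**Figure D4:**
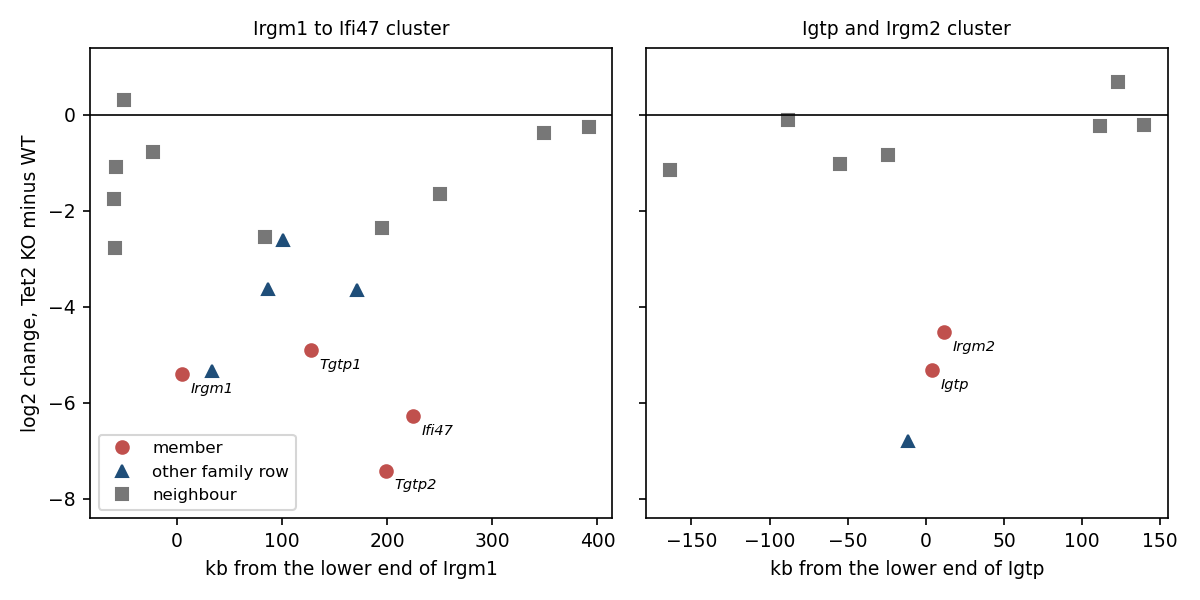
Log2 change (Tet2 KO minus WT) of IRG members (red circles), other family rows (blue triangles) and tested neighbours within 200 kb (grey squares), against distance in kb along chromosome 11 in the 2 IRG clusters. On this log2(TPM + 1) scale members lie at or below -4.52 and neighbours at or above -2.77, an order that does not hold with a pseudocount of 0.1.

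The genes that carry the interferon signal to the family were examined by role, in a list of 33 genes of which 27 were tested. In it 18 were lower (26.7% of all genes), 0 were higher (22.1%) and 9 passed neither way, and the median gene fell by 1.00 on the log2 scale. Of the 27, 25 reached 1 TPM in all libraries. Of the 10 transcription factors 9 were called lower, with a median of -2.66, the lowest of the 5 roles. With ERCC scaling, which moved the median of all genes from -0.12 to 0.43, 13 of the list were lower and 5 higher, and the split over all genes went from 3182 lower and 2629 higher to 1492 lower and 4942 higher.

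Among the ligands, Ifng, which encodes interferon gamma, lay between 0.09 and 0.34 TPM in all 4 libraries and was not tested. Genes of cells that make it were low as well. The 4 NK cell markers were under 1 TPM in every library. The 5 T cell markers in the table summed to 3.16 to 3.47 TPM in WT and 2.37 to 5.33 TPM under the Tet2 KO label. Since CD45.2 cells had been enriched, these values do not show how much interferon gamma host cells made in the spleen, which was not tested. Ifnb1, the type I interferon beta gene, picked out after its values were seen, measured 22.6 and 24.0 TPM in WT, then 0.25 and 0.23 TPM under Tet2 KO (-4.29 ± 0.29, limma adjusted p = 6.11e-09). It passed the filter through the WT libraries alone.

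The receptors of both interferon types were present in all libraries. Ifngr1, the ligand-binding chain for interferon gamma, measured 141 and 141 TPM in WT, and 149 and 127 TPM where the label was Tet2 KO, with overlapping groups (-0.03 ± 0.21, adjusted p = 0.911). Its partner Ifngr2 stood at 172 and 170 TPM against 117 and 92.3 TPM (-0.71 ± 0.21, adjusted p = 0.0124), a call lost in 5 of 14 tests, among them ERCC scaling, median centring and quantile normalization. The type I receptor chains Ifnar1 and Ifnar2 had log2 changes of -1.34 ± 0.20 and -1.20 ± 0.21, from 179 to 70.0 ± 3.99 TPM and from 181 to 79.0 ± 12.7 TPM. With ERCC scaling the call of Ifnar2 was lost, and with no filter on low values both calls were lost.

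Of the 3 kinases 1 was called. Jak1 stood at 147 and 145 TPM against 225 and 188 TPM (0.49 ± 0.22, adjusted p = 0.0763) and passed as higher in 5 of 14 tests. Jak2 stood at 163 and 163 TPM against 153 and 116 TPM (-0.28 ± 0.22, adjusted p = 0.307), and Tyk2, which serves the type I receptor, fell by 0.97 ± 0.20, a call lost with ERCC scaling. Stat2 and Irf9, parts of the complex that binds the ISRE, both fell. Stat2 went from 294 and 296 TPM to 20.8 and 24.3 TPM (-3.66 ± 0.19, limma adjusted p = 4.15e-10), and Irf9 from 175 and 182 TPM to 25.2 and 30.8 TPM (-2.63 ± 0.20). Irf1, an interferon-induced factor that itself binds the ISRE, stood at 159 and 159 TPM against 35.9 and 39.8 TPM (-2.05 ± 0.19), and Irf8, a myeloid factor of the same family, fell by 2.89 ± 0.27. Socs1, the feedback inhibitor of JAK kinases, fell by 2.94 ± 0.25, from 70.6 to 8.38 ± 1.27 TPM. With no filter on low values the calls of Tyk2, Stat2, Irf9, Irf1, Irf8 and Socs1 were lost.

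**Figure D5:**
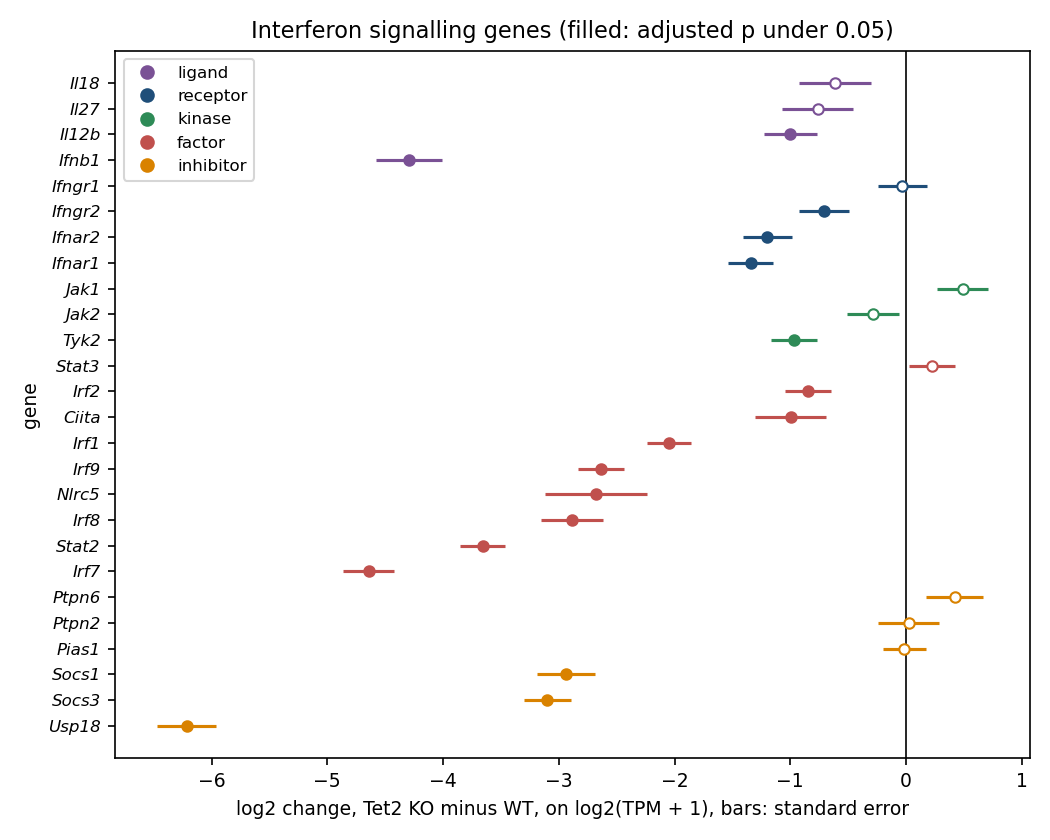
Log2 change (Tet2 KO minus WT, on log2(TPM + 1)) with its standard error for 26 of the 27 tested interferon signalling genes, coloured by role; filled points have an adjusted p under 0.05. The factors Stat2 and Irf9 lie below -2.6, while Ifngr1 (-0.03), Jak2 (-0.28) and Jak1 (0.49) are open.

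Genes of proteins that work with IRG proteins on vacuoles were called both ways, as were genes in general. Of 22 genes, mostly of autophagy and ubiquitin tagging with a few GTPase regulators and others, 3 were lower, 5 were higher and 14 passed neither way, where 26.7% of all genes were lower and 22.1% higher, with a median of 0.20. The call with the smallest p among the falls was Trim21, a ubiquitin ligase recruited to vacuoles, with WT values of 72.3 and 73.9 TPM and Tet2 KO values of 6.05 and 6.58 TPM (-3.34 ± 0.26). Among the rises it was Cyth1, an exchange factor for ARF GTPases, at 89.7 and 90.3 TPM against 220 and 267 TPM (1.42 ± 0.22). With ERCC scaling 1 was lower and 12 higher, and with both WT libraries as samples 6 and 8. Genes of the guanylate-binding proteins, the related GTPases that act beside the IRG effectors, fell in 8 of 8 tested cases out of 11. Their median was -3.84, and 3 were called with no filter. Of the 8, 1 passed the filter through the WT libraries alone. Gbp5 had the smallest p, with WT values of 287 and 286 TPM and Tet2 KO values of 2.57 and 2.30 TPM, a log2 change of -6.39 ± 0.26.

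The 5 genes outside the family with the profile nearest to the members' mean were Cxcl11, Phf11d, Gbp3, Cd69 and Tnfsf8. Of these, Cxcl11, Phf11d and Tnfsf8 passed the filter through the WT libraries alone. Both their values under the Tet2 KO label were under 1 TPM, so their distances depend on the pseudocount. Likeness was the Euclidean distance over the 4 libraries between log2(TPM + 1) profiles with each gene's mean removed. It was 0.101 for Cxcl11, a T cell chemokine gene that the annotation lists as a polymorphic pseudogene. The distance was 0.240 for Tnfsf8, the CD30 ligand. Among the members it was 0.213 for Irgm1 and 1.88 for Tgtp2. With 4 libraries in 2 groups this measure mostly ranks genes by the size of their fall. Cxcl11 ranked first, with WT values of 61.3 and 61.9 TPM and Tet2 KO values of 0.23 and 0.43 TPM, and Cd69, an early activation marker, at 684 and 689 TPM against 13.6 and 16.5 TPM.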

How the data were processed

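RNA was measured in 4 libraries prepared with a stranded mRNA kit, per the labels' protocols. Values are TPM as deposited by the authors. The submitters' processing notes name STAR, RSEM and mm10; tool versions and the annotation were not given in the sources used here. Of 24589 rows, 92 ERCC spike-ins stayed out of tests, and 27 rows with a date for a name were kept. What 1 read is worth was estimated from low TPM values, of which 73.3% to 76.2% lay within 0.2 of a whole multiple.

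Groups were compared by limma 3.58.1 (R 4.3.3, abundance trend, robust variances) on log2(TPM + 1), two-sided, over 11919 genes with 1 TPM in at least 2 libraries, with Benjamini-Hochberg adjustment over all of them. With WT counted as 1 sample, 1 residual degree of freedom is left, and WT is assumed to vary like Tet2 KO. Coordinates follow GENCODE M21 (23720 of 24497 names matched), counted from 1.

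Members and lists were chosen with earlier results of these data known. Named genes were the members, other family rows, 14 signalling genes (1 is not reported here), the smallest p per direction of the cofactor and GBP lists, called neighbours and the 5 nearest profiles.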

Additional observations from a re-analysis of the deposited data

How the results depend on the processing

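All 7 members kept a negative change under the 15 alternatives run. Their median log2 change was -5.55 with a pseudocount of 0.1, -4.82 with ERCC scaling and between -5.50 and -5.20 when any 1 library was left out. Without the filter on low values 3 were called, Irgm1, Iigp1 and Tgtp1, while Igtp, Irgm2, Tgtp2 and Ifi47 had limma adjusted p of 0.0860, 0.0787, 0.107 and 0.0536; the cause was not tested. A Tet2 KO library left out against the averaged WT gives values with no test, so this was also done with both WT libraries as samples, where the lone Tet2 KO library is assumed to vary like WT.

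Over all genes, 246 were higher and 1798 lower without the filter, 4942 and 1492 with ERCC scaling, and 3974 to 4321 and 4987 to 5674 with a Tet2 KO library left out. Without the filter, 5 signalling, 1 cofactor, 3 GBP and 2 neighbour genes were lower, and 0 other family rows, cofactors or neighbours were higher. With ERCC scaling, 1 cofactor and 6 neighbours were lower, and 2 other family rows, 5 signalling genes, 12 cofactors and 3 neighbours were higher. With both WT libraries as samples, 6 cofactors were lower, and 2 signalling genes, 8 cofactors and 2 neighbours were higher. With a Tet2 KO library left out, 7 to 9 cofactors were lower, and 3 to 4 signalling genes, 10 to 11 cofactors and 2 neighbours were higher. The 1 other family row called higher, Irgc1, gave a count of 0 with a filter of 5 TPM (where it was not tested), without trend and robust variances, with median centring, with quantile normalization, without WT replicate 1 and without Tet2 KO replicate 1 (range 0 to 1 over the libraries left out). Ifngr1 turned to a log2 change of 0.082 (limma adjusted p = 0.0436) without Tet2 KO replicate 2, and passed as lower, at -0.15 (adjusted p = 0.00779), without Tet2 KO replicate 1, both with both WT libraries as samples.

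The groups share replicate numbers, and deviations of same-numbered libraries did not go together (r = -0.011 across genes). The WT libraries differ by little more than read sampling, so this correlation could hardly show a pairing. Whether the numbers pair anything is not known. A replicate block was fitted with both WT libraries as samples. It gave 6 cofactors lower and 2 signalling genes and 2 neighbours higher, the same counts as without the block. Cofactors called higher went from 8 to 7 with the block, and neighbours called lower from 12 to 11. Over all genes 3495 were higher and 4461 lower with it, against 3520 and 4517 without it. All 7 members were called lower in both fits.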
